A study of Mus musculus with 6 samples.

Results

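Translation initiation factors (eIFs) and elongation factors (eEFs), with the kinases, inhibitors and methyltransferases that act on them, were described in mouse granulosa cells. Members were the protein-coding genes whose names in the 6 deposited tables begin with Eif1 to Eif6, Eef1 or Eef2. The rule took 67 of 54551 genes, and 62 of these had an FPKM (fragments scaled to gene length and library size) over 1 in at least 3 libraries and could be tested. They were read by factor complex. RNA came from granulosa cells, the somatic cells of the ovarian follicle, of C57BL/6 mice at 21 days of age. Libraries labelled Gm12840-/-, called knockout here, numbered 3, and libraries labelled wild type also numbered 3. All mice of both labels had been primed with 5 IU of PMSG for 48 h and then given 5 IU of hCG, in place of the ovulatory hormone surge, 6 h before collection. Neither the deleted part of Gm12840 nor the number of mice behind a library is given in the labels. The p-values therefore measure only the spread between these samples, which may be technical.

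Initiation factors bring the initiator tRNA and the mRNA cap to the small ribosomal subunit, scan to the start codon and join the large subunit. Elongation factors then deliver each aminoacyl-tRNA and move the ribosome along. The main controls are phosphorylation of eIF2 alpha, which slows loading of initiator tRNA, and the 4E-binding proteins, which hold the cap-binding protein eIF4E until mTOR releases it. In granulosa cells gonadotropins are known to activate mTOR signalling, and many mRNAs of the translation machinery carry a terminal oligopyrimidine (TOP) tract at the 5′ end that couples them to mTOR.

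The targeted gene did not separate the labels. Gm12840 was read 5, 7 and 14 times in the libraries labelled knockout 1 to 3, against 17, 6 and 5 times in those labelled wild type 1 to 3, so every direction below rests on the labels alone. Depth recovered from the FPKM values was 16392098 to 17020427 reads in the libraries labelled knockout and 16609477 to 19465847 in those labelled wild type. Libraries of the same label were unlike each other. The share of reads from mitochondrially encoded genes was 1.52%, 4.19% and 0.146% in knockout 1 to 3, against 0.227%, 0.311% and 2.08% in wild type 1 to 3. Cytosolic ribosomal protein genes took 6.20%, 3.67% and 12.4% in knockout 1 to 3, against 13.3%, 9.68% and 4.58% in wild type 1 to 3. Granulosa markers fixed for this work, among them Fshr, Foxl2 and Inha, were detected in 11 of 11 cases. Their log2 fold change was negative in 8 and positive in 3, with a median of -0.18 and none called. Their summed level was 4777 to 9426 FPKM in the libraries labelled knockout and 6535 to 12299 FPKM in those labelled wild type, and 0 of the 11 markers were at 0 in all libraries. Markers of stroma and smooth muscle had a positive log2 fold change in 9 of 9 tested, with sums of 89.8 to 114 FPKM in the libraries labelled knockout and 62.5 to 119.6 FPKM in those labelled wild type. Groups did not overlap for Col1a2 and Pdgfrb of that list, nor for the endothelial marker Eng, all higher in the libraries labelled knockout. Of all tested genes, 3.53% did not overlap. Myh11, Rgs5 and Tagln of the stroma list missed the filter. Their means were 1.29, 0.482 and 0.327 FPKM for the knockout label, against 0.628, 0.356 and 0.599 FPKM for the wild-type label. Groups did not overlap for Myh11 and overlapped for Rgs5 and Tagln. The fold change was also positive for 4 of 4 tested theca markers, with sums of 43.3 to 44.9 FPKM in the libraries labelled knockout and 26.3 to 61.7 FPKM in those labelled wild type. It was positive for 5 of 6 tested endothelial markers, with sums of 20.4 to 24.4 FPKM in the libraries labelled knockout and 11.6 to 20.8 FPKM in those labelled wild type. Erythroid markers had a negative one in 5 of 5, with sums of 473 to 3512 FPKM in the libraries labelled knockout and 613 to 4455 FPKM in those labelled wild type. No gene of these 4 lists was called or at 0 in all libraries, and their part in the members' values was not tested. Bulk RNA cannot tell fewer cells of a type from less RNA per cell.

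The share of all reads that fell on members was 2.37%, 1.96% and 2.61% in the libraries labelled knockout 1 to 3, against 2.72%, 2.61% and 2.16% in those labelled wild type 1 to 3. Their levels spread over 3 orders of magnitude. Eef1a1, which carries aminoacyl-tRNA to the ribosome, made up 24.7% to 38.3% of the members' summed FPKM in the libraries labelled knockout and 28.7% to 35.4% in those labelled wild type. Eef2, the translocase, came next in every library. Eif5a, Eef1b2, Eif4a1, Eif1 and Eef1g followed, in an order that differed between libraries. At the other end, Eif2s3y, the Y-linked copy of the eIF2 gamma gene, had 0 reads in all 6 libraries, which allows up to 3 reads in each. Eef1a2, the form known from muscle and neurons, had 1 read in knockout 3, 1 in wild type 3 and 0 elsewhere.

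**Figure D1:**
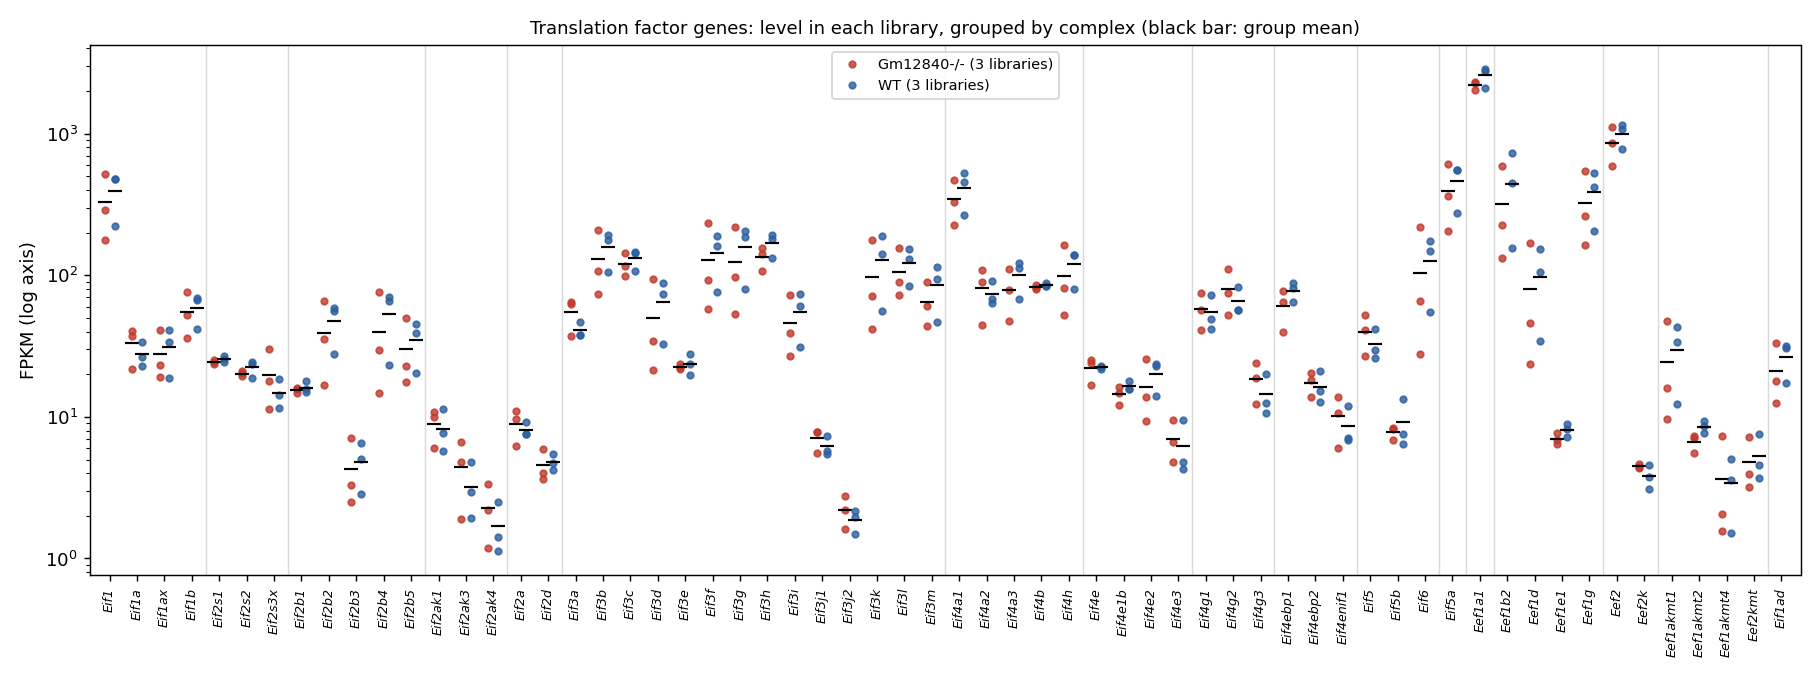
Level of each of the 62 tested genes in FPKM on a log axis, with 1 point per library, Gm12840-/- left of WT for each gene, black bars for group means and grey lines between complexes. Eef1a1 is highest in every library, at 2020 to 2333 FPKM in the libraries labelled knockout and 2118 to 2874 FPKM in those labelled wild type, and the groups overlap for all genes but Eef1akmt2.

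No member was called between the labels. limma called 0 of 62 tested members at an adjusted p under 0.05, where 0% of all 12495 tested genes were called. At an unadjusted p under 0.05 it gave 0 members and 91 genes in all, or 0.728%, while limma-voom, run on recovered reads, called 0 members and 0 genes, with 0 members and 75 genes at an unadjusted p under 0.05. Of the members, 44 had a negative and 18 a positive log2 fold change (knockout over wild type, on the log2(FPKM + 1) scale), with a median of -0.18. Over all tested genes 6867 were negative and 5628 positive, with a median of -0.035. The 95% interval of a member had a median half-width of 0.89 (log2), against 0.73 for all tested genes.

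The members' median rested on single libraries. It was -0.0088 without knockout 2, -0.057 without wild type 1, -0.36 without wild type 3 and -0.38 without knockout 3. When both libraries numbered 3 were dropped, a choice made with the data in view, 21 of 62 members passed the threshold in limma, 19 lower and 2 higher, beside 27.8% of the 11563 genes tested there. Of all genes, 1970 were lower, or 17%, and 1243 were higher. Dropping them leaves the 2 libraries labelled wild type with low mitochondrial shares, 0.227% and 0.311%, against the 2 labelled knockout with shares of 1.52% and 4.19%. Label and library state cannot be told apart in it. With each library's slope of values on gene length as a covariate, chosen with the data in view too, 31 members were negative and 31 positive, with a median of -0.0070.

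**Figure D2:**
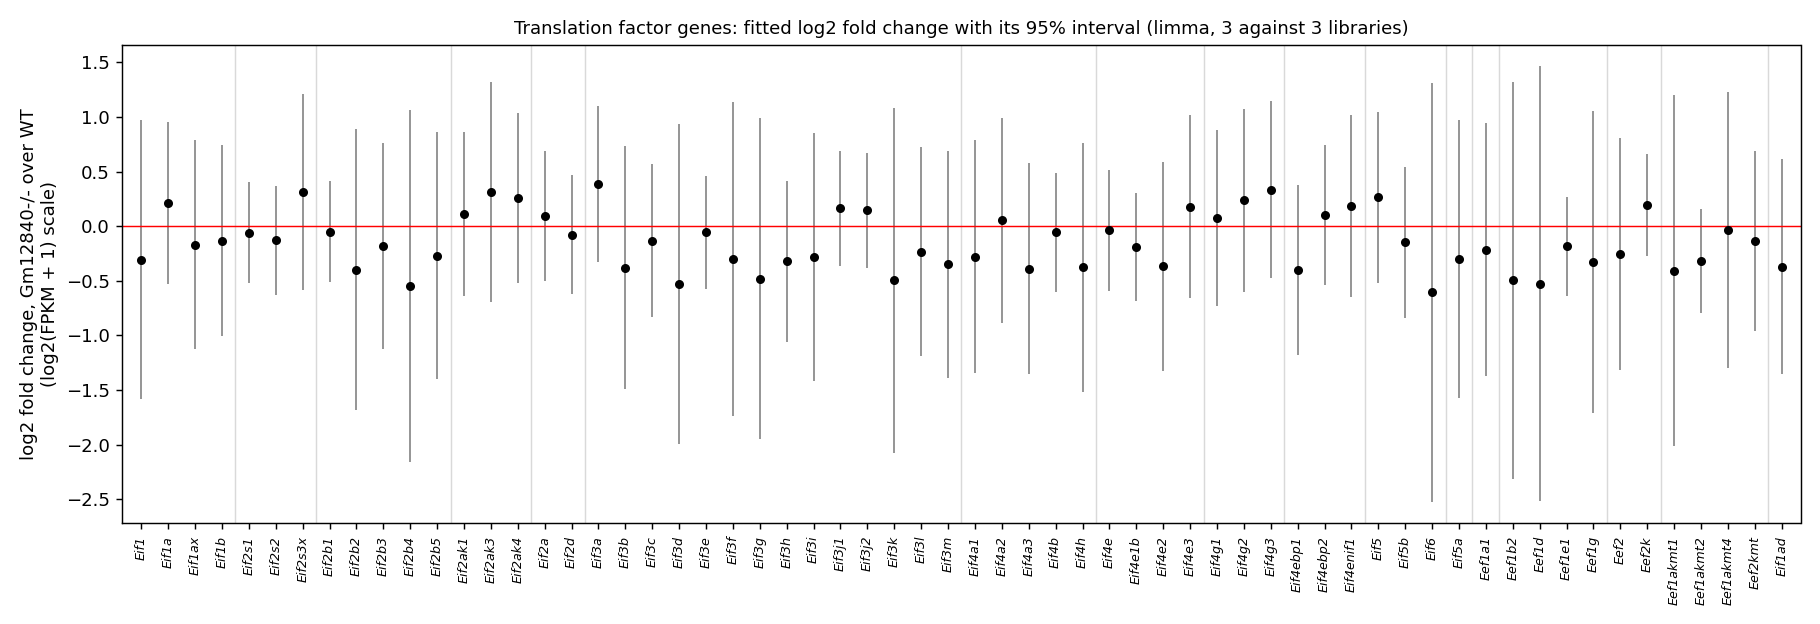
Fitted log2 fold change of each tested gene, Gm12840-/- over WT, on the log2(FPKM + 1) scale with its 95% interval (limma, 3 libraries against 3). Values run from -0.60 for Eif6 to 0.38 for Eif3a, and every interval includes 0.

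Groups did not overlap for 1 member, Eef1akmt2, an eEF1A lysine methyltransferase, or 1.61% of the 62, against 3.53% of all tested genes. Its level was 7.30, 5.55 and 7.14 FPKM in the libraries labelled knockout 1 to 3, against 9.28, 8.65 and 7.71 FPKM in those labelled wild type 1 to 3. All 3 values of the knockout label lay below the lowest of the wild-type label. The log2 fold change was -0.32 (SE 0.20, 95% interval -0.80 to 0.15), with an adjusted p of 0.993 by limma. This was the smallest unadjusted p among members, 0.153. Eef1akmt2 lies inside Fgfr2 on the same strand, and Fgfr2 itself was measured at 3.01 to 5.13 FPKM in the libraries labelled knockout and 2.57 to 4.11 FPKM in those labelled wild type.

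The scanning factors eIF1 and eIF1A keep the small subunit in an open, searching state. Eif1 was measured at 287, 178 and 520 FPKM in the libraries labelled knockout 1 to 3, against 478, 476 and 222 FPKM in those labelled wild type 1 to 3. Knockout 3 was the highest and knockout 2 the lowest of the 6, so the groups overlapped fully. For its close paralog Eif1b the values were 52.5, 36.0 and 76.6 FPKM in knockout 1 to 3, against 69.3, 66.7 and 41.4 FPKM in wild type 1 to 3. Both genes were highest in knockout 3 and lowest in knockout 2. For the eIF1A pair the order differed between genes: Eif1ax had 23.1, 19.1 and 40.8 FPKM in knockout 1 to 3, against 41.0, 33.6 and 18.8 FPKM in wild type 1 to 3. Eif1a had 40.1, 37.1 and 21.8 FPKM in knockout 1 to 3, against 22.9, 33.7 and 26.6 FPKM in wild type 1 to 3. The 2 libraries in which Eif1ax was highest, knockout 3 and wild type 1, were the lowest for Eif1a.

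eIF2 binds GTP and the initiator tRNA, and its 3 subunits were uneven across libraries. Eif2s1, the alpha subunit that stress kinases phosphorylate, was among the steadiest members, at 24.6, 25.3 and 23.7 FPKM in the libraries labelled knockout 1 to 3, against 26.8, 25.7 and 24.3 FPKM in those labelled wild type 1 to 3. Its highest library was 1.13 times its lowest. Eif2s3x, the X-linked gamma subunit, had 17.97, 29.9 and 11.3 FPKM in knockout 1 to 3, against 14.2, 11.6 and 18.6 FPKM in wild type 1 to 3, a range of 2.64 times. Eif2s2, the beta subunit, lay between 19.4 and 20.9 FPKM in the libraries labelled knockout and between 18.8 and 24.4 FPKM in those labelled wild type.

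eIF2B recharges eIF2 with GTP and is the target of phosphorylated eIF2 alpha. All 5 of its subunit genes had a negative log2 fold change, from -0.55 for Eif2b4 to -0.050 for Eif2b1, and none was called. The value for Eif2b4 was -0.0037 without knockout 2 and -1.15 without knockout 3. Eif2b4, the delta subunit, was measured at 29.5, 14.7 and 75.9 FPKM in the libraries labelled knockout 1 to 3, against 69.8, 65.7 and 23.2 FPKM in those labelled wild type 1 to 3. Knockout 3 was highest, knockout 2 lowest, and wild type 3 close to the low end. Eif2b1, the alpha subunit, had 15.8, 15.9 and 14.8 FPKM in knockout 1 to 3, against 14.9, 15.6 and 17.9 FPKM in wild type 1 to 3. The ratio of Eif2b4 to Eif2b1 was therefore 1.86, 0.922 and 5.13 in knockout 1 to 3, against 4.69, 4.20 and 1.30 in wild type 1 to 3. Eif2b2, Eif2b3 and Eif2b5 (the beta, gamma and epsilon subunits) followed Eif2b4, each highest in knockout 3, with ranges of 3.89, 2.84 and 2.87 times.

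The 4 kinases of eIF2 alpha were low. Eif2ak1 (HRI), activated when haem is short, was the most abundant, at 9.92, 10.8 and 6.07 FPKM in the libraries labelled knockout 1 to 3, against 5.74, 7.68 and 11.3 FPKM in those labelled wild type 1 to 3. Eif2ak3 (PERK), the kinase of endoplasmic reticulum stress, had 4.76, 6.61 and 1.90 FPKM in knockout 1 to 3, against 1.92, 2.93 and 4.77 FPKM in wild type 1 to 3. The highest library was 3.48 times the lowest, and the groups overlapped. Eif2ak4 (GCN2), which senses uncharged tRNA, lay between 1.19 and 3.37 FPKM in the libraries labelled knockout and between 1.13 and 2.51 FPKM in those labelled wild type. Eif2ak2 (PKR), activated by double-stranded RNA, missed the filter, with 81, 187 and 84 reads in knockout 1 to 3, against 40, 30 and 95 reads in wild type 1 to 3. The 3 tested kinases had positive log2 fold changes, 0.11 for Eif2ak1, 0.31 for Eif2ak3 and 0.26 for Eif2ak4, and none was called. Eif2a, which can deliver initiator tRNA without eIF2, had 9.61, 10.98 and 6.28 FPKM in knockout 1 to 3, against 7.62, 7.62 and 9.20 FPKM in wild type 1 to 3. Eif2d, with a like role, lay between 3.67 and 5.94 FPKM in the libraries labelled knockout and between 4.19 and 5.46 FPKM in those labelled wild type.

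eIF3 is the largest initiation factor, a scaffold on the small subunit, and 10 of its 14 genes were lowest in knockout 2. The log2 fold change was negative in 11 and positive in 3, with a median of -0.29 and none called. Eif3a, the subunit at the core of the complex, was measured at 63.2, 65.0 and 37.0 FPKM in the libraries labelled knockout 1 to 3, against 38.1, 37.8 and 46.9 FPKM in those labelled wild type 1 to 3. Knockout 1 and 2 were the highest of the 6, while knockout 3 was the lowest. Its log2 fold change of 0.38 (SE 0.30, 95% interval -0.33 to 1.10) was the largest positive value among members, with an adjusted p of 0.993 by limma.

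Those 10 (Eif3b, Eif3c, Eif3d, Eif3f, Eif3g, Eif3h, Eif3i, Eif3k, Eif3l and Eif3m) varied by unequal amounts. Eif3d, which can bind the cap itself, had 34.3, 21.4 and 93.8 FPKM in knockout 1 to 3, against 87.7, 74.0 and 32.9 FPKM in wild type 1 to 3. Eif3g, which binds RNA and eIF4B, had 97.0, 53.0 and 220.1 FPKM in knockout 1 to 3, against 206.9, 187.5 and 79.9 FPKM in wild type 1 to 3. Relative to Eif3a, Eif3g was present at 1.54, 0.816 and 5.94 times in knockout 1 to 3, against 5.44, 4.97 and 1.70 times in wild type 1 to 3. Eif3k had the widest range in the complex, 4.54 times, with its lowest value of 41.7 FPKM in knockout 2 and its highest of 189 FPKM in wild type 1. Eif3e lay in a narrow band, from 21.7 to 23.7 FPKM in the libraries labelled knockout and from 19.9 to 27.6 FPKM in those labelled wild type. Eif3c, another core subunit, lay within 1.46 times. The subunits Eif3b, Eif3f, Eif3i, Eif3l and Eif3m ranged 2.82, 4.04, 2.75, 2.14 and 2.61 times over the 6 libraries. Eif3h was measured at 142, 107 and 155 FPKM in knockout 1 to 3, against 194, 179 and 133 FPKM in wild type 1 to 3 (log2 fold change -0.32, SE 0.31, adjusted p = 0.993 by limma). Eif3j1 and Eif3j2, for the loosely bound j subunit, had 5.58 to 7.82 and 1.61 to 2.78 FPKM in the libraries labelled knockout, against 5.48 to 7.33 and 1.501 to 2.16 FPKM in those labelled wild type.

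**Figure D3:**
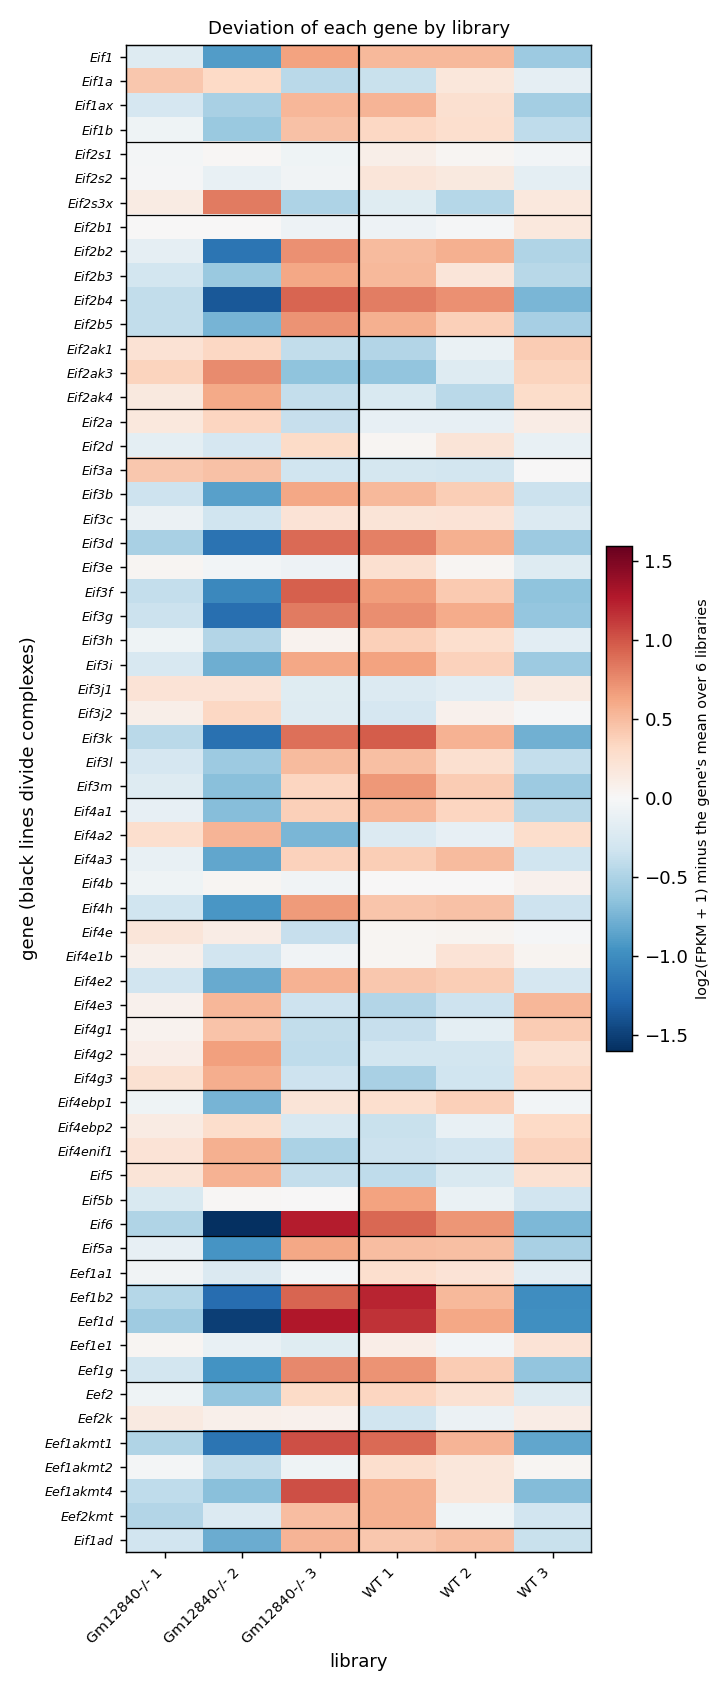
Deviation of log2(FPKM + 1) from the gene's mean over the 6 libraries, with genes in rows by complex and libraries in columns, Gm12840-/- left of WT. Knockout 2 and knockout 3 hold opposite colours in most rows; in the eIF2B block Eif2b4 runs from dark blue to dark red while Eif2b1 stays pale. Eif3a, the eIF4G genes, Eif5 and Eif4a2 are among the rows that are high in knockout 2 and low in knockout 3.

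The cap-binding complex eIF4F joins eIF4E, an eIF4G scaffold and the helicase eIF4A. Eif4e, which binds the cap, had 25.4, 24.0 and 16.9 FPKM in the libraries labelled knockout 1 to 3, against 22.5, 22.8 and 21.8 FPKM in those labelled wild type 1 to 3. The 3 libraries of the wild-type label were close to each other, and knockout 3 was below them all. Eif4g1, the main scaffold, had 56.8, 75.1 and 41.2 FPKM in knockout 1 to 3, against 41.9, 49.0 and 72.9 FPKM in wild type 1 to 3. Eif4g2 (DAP5), which cannot bind eIF4E, had 75.4, 111 and 52.8 FPKM in knockout 1 to 3, against 57.0, 57.1 and 83.0 FPKM in wild type 1 to 3. Eif4g3, the third scaffold, had 18.8, 24.2 and 12.4 FPKM in knockout 1 to 3, against 10.7, 12.5 and 20.2 FPKM in wild type 1 to 3. The 3 eIF4G genes were each highest in knockout 2, and all had positive log2 fold changes, 0.075 for Eif4g1, 0.24 for Eif4g2 and 0.33 for Eif4g3, with none called.

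Eif4a1, the main helicase, ran the other way. Its values were 332, 227 and 472 FPKM in the libraries labelled knockout 1 to 3, against 524, 458 and 266 FPKM in those labelled wild type 1 to 3. The processed pseudogene Eif4a-ps4, a near copy, was listed at 175 to 229 FPKM in the libraries labelled knockout and 192 to 265 FPKM in those labelled wild type, so reads may be split between them and the level of Eif4a1 is uncertain. Eif4a3, the helicase of the exon junction complex, had 78.6, 47.6 and 111 FPKM in knockout 1 to 3, against 113, 122 and 68.3 FPKM in wild type 1 to 3. Eif4b, a cofactor of the helicase, was the steadiest of the 62 members, at 80.2, 85.8 and 80.7 FPKM in knockout 1 to 3, against 84.3, 84.4 and 88.1 FPKM in wild type 1 to 3, a range of 1.10 times. Eif4a2, the second helicase, had 89.97, 109 and 44.6 FPKM in knockout 1 to 3, against 63.8, 67.7 and 90.9 FPKM in wild type 1 to 3, and so was highest where Eif4a1 was lowest. Eif4h, the related cofactor, ranged 3.09 times, with its lowest value in knockout 2 and its highest in knockout 3.

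Other cap-binding proteins were also present. Eif4e2 (4EHP), which binds the cap without recruiting ribosomes, had 13.8, 9.40 and 25.7 FPKM in the libraries labelled knockout 1 to 3, against 23.5, 23.0 and 14.1 FPKM in those labelled wild type 1 to 3. Eif4e1b, the eIF4E form known from oocytes, had 16.4, 12.2 and 14.7 FPKM in knockout 1 to 3, against 15.7, 17.97 and 15.8 FPKM in wild type 1 to 3. Oocyte markers were present beside it. Of 10, among them Zp3 and Gdf9, 9 passed the filter, 0 were at 0 in all libraries, and their summed level was 225 to 369 FPKM in the libraries labelled knockout and 253 to 422 FPKM in those labelled wild type. Their part in the level of Eif4e1b was not tested. Eif4e3, a cap-binding protein that lacks a contact used by eIF4E, lay between 4.804 and 9.53 FPKM in the libraries labelled knockout and between 4.29 and 9.49 FPKM in those labelled wild type.

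Among inhibitors of eIF4E, Eif4ebp1, the classical mTOR target, was the most abundant. Its values were 64.4, 39.8 and 77.9 FPKM in the libraries labelled knockout 1 to 3, against 80.9, 88.3 and 65.0 FPKM in those labelled wild type 1 to 3. The groups overlapped, with knockout 2 well below the rest. The log2 fold change was -0.40 (SE 0.33, 95% interval -1.18 to 0.38, adjusted p = 0.993 by limma), and it was -0.13 without knockout 2 and -0.60 without knockout 3. Eif4ebp2, its paralog, had 18.2, 20.3 and 13.7 FPKM in knockout 1 to 3, against 12.7, 15.1 and 20.9 FPKM in wild type 1 to 3. Eif4ebp3 missed the filter, with 4, 17 and 0 reads in knockout 1 to 3, against 0, 1 and 13 reads in wild type 1 to 3. Eif4ebp3 lies inside Ankhd1 on the same strand, so some of these reads may belong to Ankhd1. Ankhd1 was measured at 3.41, 7.73 and 1.42 FPKM in knockout 1 to 3, against 1.39, 1.75 and 3.89 FPKM in wild type 1 to 3. Eif4enif1 (4E-T), which carries eIF4E to the nucleus and to RNA granules, lay between 6.02 and 13.8 FPKM in the libraries labelled knockout and between 6.87 and 11.9 FPKM in those labelled wild type. Drg1, on the opposite strand, overlaps all of it and was measured at 17.96 to 54.4 FPKM in the libraries labelled knockout and 23.7 to 46.3 FPKM in those labelled wild type; the kit does not mark strand.

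Factors of the last steps of initiation gave the widest range of all tested members. Eif6, which keeps free large subunits apart from small ones, was measured at 65.4, 27.9 and 219 FPKM in the libraries labelled knockout 1 to 3, against 174, 150 and 55.0 FPKM in those labelled wild type 1 to 3. The highest and lowest libraries, knockout 3 and knockout 2, carried the same label and differed 7.86 times. Its log2 fold change of -0.60 was the most negative among members, with an SE of 0.80 and an adjusted p of 0.993 by limma. Eif5, which activates the GTPase of eIF2, ran against it, at 40.8, 52.3 and 26.8 FPKM in knockout 1 to 3, against 26.2, 29.6 and 41.9 FPKM in wild type 1 to 3. Eif5b, the GTPase of subunit joining, lay between 6.84 and 8.37 FPKM in the libraries labelled knockout and between 6.46 and 13.4 FPKM in those labelled wild type. Eif1ad, named for its eIF1A domain, had 17.9, 12.5 and 33.2 FPKM in knockout 1 to 3, against 30.7, 31.7 and 17.4 FPKM in wild type 1 to 3.

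Eef1a1 was the most abundant member of all, at 2286, 2020 and 2333 FPKM in the libraries labelled knockout 1 to 3, against 2874, 2776 and 2118 FPKM in those labelled wild type 1 to 3. Wild type 1 and 2 were highest, wild type 3 lay within the range of the knockout label, and the log2 fold change was -0.22 (SE 0.49, 95% interval -1.38 to 0.94, adjusted p = 0.993 by limma). The exchange factor that recharges it, eEF1B, varied far more. Eef1b2 had 226, 133 and 595 FPKM in knockout 1 to 3, against 726, 446 and 155 FPKM in wild type 1 to 3. Eef1d had 45.9, 23.6 and 169 FPKM in knockout 1 to 3, against 154, 106 and 34.4 FPKM in wild type 1 to 3. Ranges over the 6 libraries were 5.47 times for Eef1b2, 7.14 times for Eef1d and 3.32 times for the scaffold Eef1g, against 1.42 times for Eef1a1. Eef1e1, a small protein of the multisynthetase complex that shares a domain with them, ranged 1.38 times, at 7.72, 6.85 and 6.42 FPKM in knockout 1 to 3, against 8.19, 7.23 and 8.89 FPKM in wild type 1 to 3.

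Translocation and its control were compared next. Eef2 had 863, 587 and 1117 FPKM in the libraries labelled knockout 1 to 3, against 1144, 1071 and 780.2 FPKM in those labelled wild type 1 to 3. Eef2k, the kinase that inactivates eEF2, had 4.68, 4.41 and 4.35 FPKM in knockout 1 to 3, against 3.12, 3.79 and 4.55 FPKM in wild type 1 to 3. The 3 values of the knockout label were close together, and wild type 3 lay among them. Its log2 fold change was 0.19 (SE 0.19, 95% interval -0.27 to 0.66, adjusted p = 0.993 by limma). Eif5a, the hypusine-bearing factor that eases stalled ribosomes, had 361, 205 and 607 FPKM in knockout 1 to 3, against 558, 553 and 275 FPKM in wild type 1 to 3. The methyltransferase genes of elongation factors numbered 4 by name, and all had negative log2 fold changes, from -0.41 for Eef1akmt1 to -0.035 for Eef1akmt4, with none called. Eef1akmt1 had 16.1, 9.59 and 47.7 FPKM in knockout 1 to 3, against 43.5, 33.5 and 12.4 FPKM in wild type 1 to 3. Eef1akmt4 and Eef2kmt were low, at 1.56 to 7.30 and 3.19 to 7.16 FPKM in the libraries labelled knockout, against 1.51 to 5.06 and 3.70 to 7.60 FPKM in those labelled wild type. Ece2, which shares 7407 nt of span with Eef1akmt4 on the same strand, was listed at 0 FPKM in all 6 libraries.

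Shares between paralogs were compared because they do not depend on library scaling. Eif4a2 made up 21.3%, 32.5% and 8.63% of Eif4a1 and Eif4a2 together in the libraries labelled knockout 1 to 3, against 10.9%, 12.9% and 25.5% in those labelled wild type 1 to 3. Reads of Eif4a1 may be split with the pseudogene Eif4a-ps4, so the size of the Eif4a2 share is uncertain. Eif4ebp2 made up 22.1%, 33.7% and 14.98% of Eif4ebp1 and Eif4ebp2 in knockout 1 to 3, against 13.5%, 14.6% and 24.4% in wild type 1 to 3. Both shares were highest in knockout 2 and wild type 3. Eif1ax made up 36.5%, 34.0% and 65.2% of the eIF1A pair in knockout 1 to 3, against 64.2%, 49.9% and 41.4% in wild type 1 to 3. Eif4e2 made up 35.2%, 28.1% and 60.3% of Eif4e and Eif4e2 in knockout 1 to 3, against 51.1%, 50.1% and 39.2% in wild type 1 to 3. These 2 shares were lowest in knockout 2. The share of Eif4g2 among eIF4G genes was steady, at 49.6% to 52.9% in the libraries labelled knockout and 47.1% to 52.0% in those labelled wild type. Eif1b held 12.8% to 16.8% of the eIF1 pair in the libraries labelled knockout and 12.3% to 15.7% in those labelled wild type. Eif5a2, which missed the filter, never exceeded 0.971% of the eIF5A pair in the libraries labelled knockout or 0.357% in those labelled wild type. In all 8 pairs or families compared the groups overlapped. The exact two-sided permutation p was 0.4 to 1 and its adjusted value over the 8 was 0.8 to 1, where 3 libraries against 3 cannot go below 0.1.

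**Figure D4:**
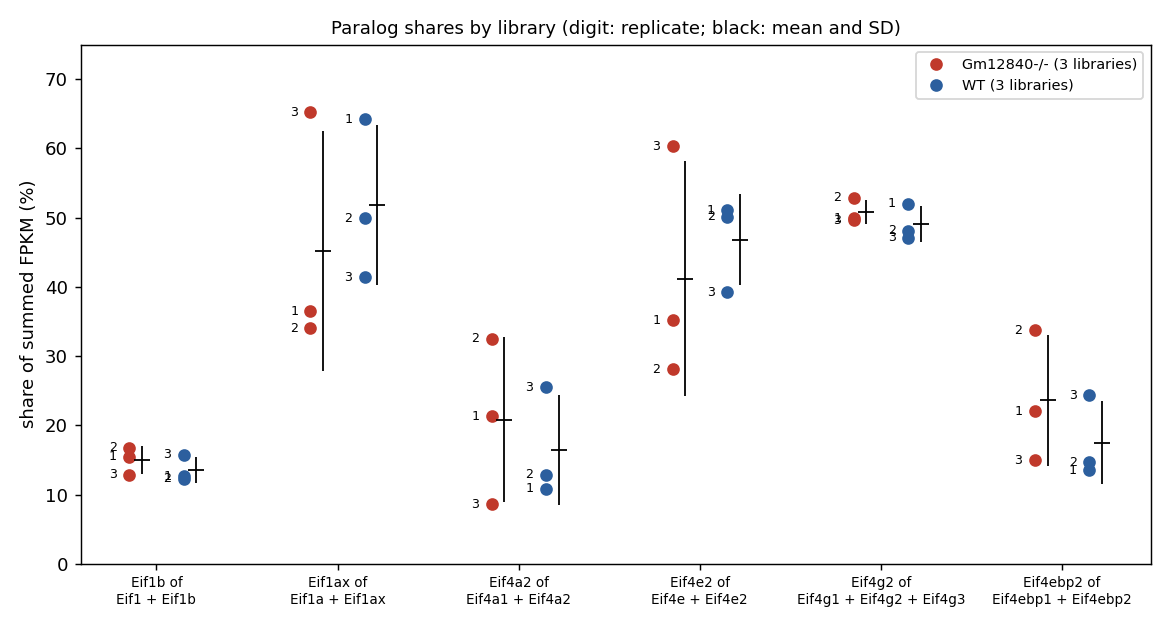
Share of a paralog in the summed FPKM of its family in percent, for 6 of the 8 families, with 1 point per library marked by replicate number, Gm12840-/- left of WT, and the mean with its SD in black. The Eif4a2 share is 8.63% to 32.5% in the libraries labelled knockout and 10.9% to 25.5% in those labelled wild type, while the Eif4g2 share stays between 47.1% and 52.9%. The size of the Eif4a2 share is uncertain, as reads of Eif4a1 may be split with Eif4a-ps4.

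Members known as TOP mRNAs were read as a group of 9 (Eef1a1, Eef1b2, Eef1d, Eef1g, Eef2, Eif3e, Eif3f, Eif3h and Eif4b). All 9 had negative log2 fold changes, with a median of -0.30, and none was called. Their median deviation from the gene mean was -0.065, -0.62 and 0.31 on the log2 scale in the libraries labelled knockout 1 to 3, against 0.38, 0.27 and -0.21 in those labelled wild type 1 to 3. For the 80 tested cytosolic ribosomal protein genes, which are TOP mRNAs too, it was -0.35, -1.13 and 0.83 in knockout 1 to 3, against 0.95, 0.46 and -0.79 in wild type 1 to 3. Both sets were lowest in knockout 2 and highest in wild type 1. The same held for all 62 tested members, which include the 9, with medians of -0.35 in knockout 2 and 0.30 in wild type 1. Over all 12495 tested genes the median was lowest in knockout 2 (-0.054) and highest in wild type 2 (0.038). Members outside the 9 were not read alone, so whether this order is particular to TOP mRNAs was not tested. Ranges within the 9 went from 1.10 times for Eif4b to 7.14 times for Eef1d.

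Start regions of 5 of these 9 genes, and of 4 members outside the list (Eif4a1, Eif1, Eif3a and Eif4g1), are printed to show pyrimidine runs near annotated starts. Each holds 25 bases before the RefSeq start (GRCm38.p6) and 25 from it on, on the gene's strand. Capitals mark the longest run of at least 6 C or T bases that begins with C, searched on that strand only.
Eef1a1, chr9:78481700-78481749, minus strand: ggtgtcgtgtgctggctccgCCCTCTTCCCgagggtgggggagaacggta
Eef2, chr10:81176606-81176655, plus strand: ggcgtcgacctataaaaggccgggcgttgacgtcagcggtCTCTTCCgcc
Eif3f, chr7:108934390-108934439, plus strand: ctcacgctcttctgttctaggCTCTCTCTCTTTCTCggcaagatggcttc
Eif4b, chr15:102073748-102073797, plus strand: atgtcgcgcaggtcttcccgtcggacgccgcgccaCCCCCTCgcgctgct
Eef1b2, chr1:63176806-63176855, plus strand: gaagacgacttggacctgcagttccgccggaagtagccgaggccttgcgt
Eif4a1, chr11:69672399-69672448, minus strand: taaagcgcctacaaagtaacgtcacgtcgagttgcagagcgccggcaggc
Eif1, chr11:100319924-100319973, plus strand: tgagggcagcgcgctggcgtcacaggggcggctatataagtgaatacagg
Eif3a, chr19:60790669-60790718, minus strand: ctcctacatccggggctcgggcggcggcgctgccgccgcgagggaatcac
Eif4g1, chr16:20672702-20672751, plus strand: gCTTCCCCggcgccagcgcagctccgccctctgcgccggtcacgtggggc

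A TOP tract begins at the first transcribed base, and none of the marked runs begins there by the annotation. With the start as base 1 and the base before it as -1, the run begins at -5 in Eef1a1, at -4 in Eif3f, at 11 in Eif4b, at 16 in Eef2 and at -24 in Eif4g1. A run anywhere in the window was present in 4 of the 5 TOP genes with a start in the table. The same held for 22 of the 52 members matched by symbol (42.3%) and for 10412 of all 27025 genes of the table (38.5%). Annotated starts can lie some bases off the start used in a cell, so a missing run says only that these letters are not in this window. Presence or length of a run did not order the printed genes by range: Eif4b and Eef2, each with 7 bases, ranged 1.10 and 1.95 times, Eif3f, with 15 bases, 4.04 times, and Eef1b2 and Eif4a1, with none, 5.47 and 2.31 times.

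Gene length went with the order of the libraries. Among 26 members with a deposited length under 3000 nt, 23 had a negative and 3 a positive log2 fold change, with a median of -0.32. Among 24 members with a deposited length of 5000 nt or more, 10 were negative and 14 positive, with a median of 0.086. Short members deviated by a median of -0.18, -0.77 and 0.52 in the libraries labelled knockout 1 to 3, against 0.50, 0.40 and -0.44 in those labelled wild type 1 to 3. Long members deviated by 0.14, 0.25 and -0.29 in knockout 1 to 3, against -0.22, -0.12 and 0.11 in wild type 1 to 3. Across the 62 members, which are not independent replicates, Spearman's correlation of length with deviation was 0.37, 0.51 and -0.43 in knockout 1 to 3, against -0.42, -0.53 and 0.45 in wild type 1 to 3. Over all 12495 tested genes it was 0.25, 0.53 and -0.41 in knockout 1 to 3, against -0.46, -0.47 and 0.44 in wild type 1 to 3. Its sign in every library was the same for the members as for all tested genes. Its part in single members was not tested.

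**Figure D5:**
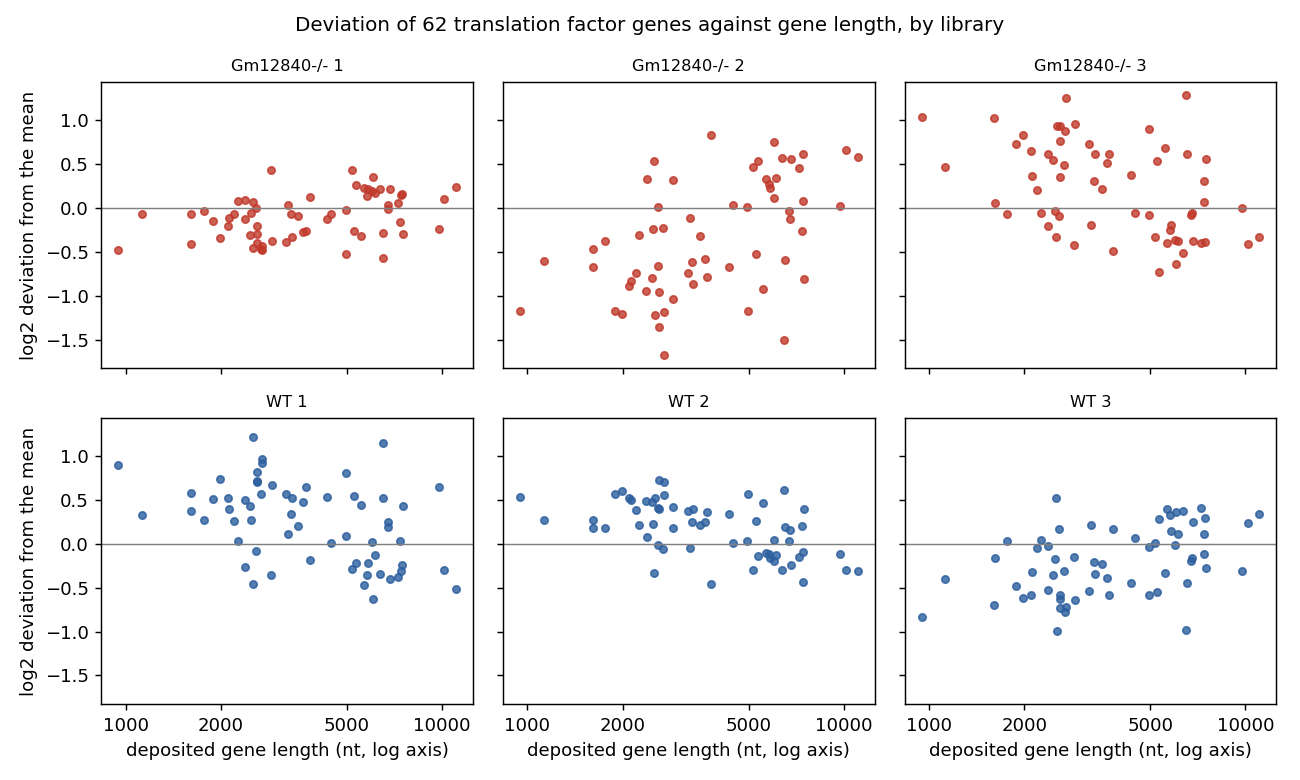
Deviation of log2(FPKM + 1) from the gene's mean against deposited gene length in nt on a log axis, with 1 point per tested gene and 1 panel per library, Gm12840-/- in the upper row and WT in the lower. Short genes lie low in knockout 2 and wild type 3 and high in knockout 3, wild type 1 and wild type 2, with Spearman's correlations from -0.53 to 0.51.

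Deposited lengths also bear on levels set beside each other. They equal the union of all annotated exons in GENCODE M21 in 61 of 67 members, and exceed the principal transcript more than 2 times in 16. Eif3e, at 6719 nt against 1506 nt, is 4.46 times longer, against a ratio of 1.01 for Eif3a. Which transcripts were present was not measured, so levels of different genes set side by side depend on the deposited length. Differences between libraries for one gene are untouched by this. The division into short and long members, and the correlations with length, do rest on the deposited length. Eef1d, at 6488 nt, and Eif4e2, at 7497 nt, were counted as long, though their principal transcripts have 2312 and 1807 nt. Values by principal transcript length were not computed.

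Other genes of translation were read from a list of 53, of which 51 were tested. limma called 0 of them, with 0 at an unadjusted p under 0.05, and limma-voom also called 0, with 0 at that level. Of the 51, 31 had a negative and 20 a positive log2 fold change, with a median of -0.029. By role, 5 of 9 were negative among termination and recycling factors, 4 of 7 among poly(A)-binding proteins and their partners, 5 of 13 among regulators of eIF4E and eIF4A, and 6 of 9 among genes of the integrated stress response. All 8 tested enzymes that make hypusine on eIF5A or diphthamide on eEF2 were negative, with a median of -0.26.

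The 4 of these genes with the smallest unadjusted p were Pdcd4, Dnajc3, Rps6kb1 and Dph7. Pdcd4, an inhibitor of the helicase eIF4A, was measured at 15.8, 11.7 and 9.63 FPKM in the libraries labelled knockout 1 to 3, against 8.54, 9.63 and 8.50 FPKM in those labelled wild type 1 to 3. Its groups did not overlap, but knockout 3 and wild type 2 were nearly equal, and the log2 fold change of 0.41 (95% interval -0.15 to 0.97) had an adjusted p of 0.993 by limma. Dnajc3, an inhibitor of eIF2 alpha kinases, had 36.4, 47.7 and 27.8 FPKM in knockout 1 to 3, against 28.2, 24.6 and 30.0 FPKM in wild type 1 to 3. Rps6kb1, the S6 kinase downstream of mTOR, had 3.81, 5.49 and 2.46 FPKM in knockout 1 to 3, against 2.10, 2.25 and 3.48 FPKM in wild type 1 to 3. Dph7, of diphthamide synthesis, had 3.80, 2.89 and 2.42 FPKM in knockout 1 to 3, against 3.22, 4.35 and 3.76 FPKM in wild type 1 to 3. Atf4, the transcription factor whose translation rises when eIF2 alpha is phosphorylated, was abundant at the RNA level, at 309, 229 and 310.1 FPKM in knockout 1 to 3, against 307, 391.7 and 249 FPKM in wild type 1 to 3.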

How the data were processed

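The authors deposited 1 table of FPKM values for each of 6 granulosa cell libraries. Per the labels' protocols the libraries came from a TruSeq RNA kit. The submitters' processing notes name HISAT2 2.0.5 and the build mm10. No counter, annotation release or scaling is given in the sources used here. FPKM times gene length gave whole reads within 0.01 in 100% of nonzero values. The library total implied by the FPKM values was 1.12, 1.12 and 0.904 times the recovered reads in knockout 1 to 3. In wild type 1 to 3 it was 0.894, 0.939 and 1.12 times the recovered reads. The deposited scaling thus differs from the recovered read total, by a factor that varies between libraries. The alternative called library totals scaled each library by its recovered reads instead. limma 3.58.1 in R 4.3.3 was fitted to log2(FPKM + 1) of all genes over 1 FPKM in at least 3 libraries, with a variance trend and no covariate beside the label. Fold changes of low genes are understated on that scale. Two-sided p-values were adjusted after Benjamini-Hochberg over all tested genes, with a threshold of 0.05. The code of the test was checked on simulated counts, drawn independently for each gene and library. Those counts lacked the differences that many genes share between libraries of a label here. The check therefore does not show the power or the error rate of the test on these data. Same-label libraries differed beyond sampling noise (chi-square over genes with 20 or more reads), so none was taken for a copy. The members, lists, shares and alternatives were chosen with earlier results of these data known. Values per library were given for the most abundant member of each complex, the 10 members with the smallest p, members without overlap and the paralog families; other members were named after their values were seen. Of the members, 62 have the coordinates of GENCODE M21, 37 share their span with another annotated feature, and 12 are overlapped by a protein-coding gene on the opposite strand. Promoter sequences are from RefSeq (GRCm38.p6). Figures were drawn with matplotlib 3.10.9.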

Additional observations from a re-analysis of the deposited data

How the results depend on the processing

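limma called 0 members, 0 genes in all and 0 of the other translation genes under each of the 15 alternatives set for this comparison: pseudocounts, filters, library totals, upper-quartile scaling, limma-voom, protein-coding genes, the replicate block and leaving out each library (0 to 0 called). Dropping both libraries numbered 3, a choice made with the data in view, gave calls for 3213 of 11563 tested genes, or 27.8%. Among these were 21 of 62 members and 14 of the 53 listed other translation genes, and the members' median was -0.51. With the length slope as a covariate, chosen likewise, limma called 1 gene and 0 members; the cause was not tested. Leaving out 1 library put the members' median between -0.38 and -0.0088; it was -0.085 with library totals, where 38 of 63 tested members were negative and the median of all genes moved from -0.035 to 0.038.

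With the replicate block, 0 members and 0 genes were called. In this balanced design the block cannot change the fold changes or the 8 shares' differences, so their staying the same is no check. Correlations between same-numbered libraries, taken after subtracting each gene's mean within the label, were -0.42, -0.67 and -0.89. They compare departures from the label mean, not levels. For 0 of 6 was the best match the library of the same number, which gives no sign of pairing.

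Among 31 named members, none called in any alternative, the sign turned with library totals for Eif2s1 (0.025) and Eif4e (0.047). Leaving out 1 library turned signs in the ranges -1.03 to 0.075 for Eef1akmt1, -0.70 to 0.064 for Eif1, -0.48 to 0.058 for Eif1ax, -0.40 to 0.13 for Eif1b, -0.053 to 0.31 for Eif2a, -0.093 to 0.34 for Eif2ak1, -0.20 to 0.43 for Eif4a2 and -0.14 to 0.14 for Eif4e. It did so too in the ranges -0.049 to 0.29 for Eif4ebp2, -0.13 to 0.30 for Eif4g1, -0.034 to 0.50 for Eif4g2, -0.69 to 0.092 for Eif5a and -1.38 to 0.085 for Eif6. With no turn of sign, the ranges were -1.15 to -0.0037 for Eif2b4, -0.60 to -0.13 for Eif4ebp1, 0.24 to 0.64 for Eif3a, -0.48 to -0.17 for Eif3h, -0.35 to -0.13 for Eef1a1, 0.087 to 0.30 for Eef2k and -0.39 to -0.21 for Eef1akmt2. Differences of shares, knockout minus wild type in percentage points, turned in the ranges -1.42 to 10.5 for Eif4a2, -15.2 to 0.934 for Eif4e2, -0.00811 to 0.460 for Eif5a2 and -0.000346 to 0.000445 for Eef1a2. The cause was not tested. Low read numbers limit Eef1a2 and Eif4ebp3, with at most 17 reads in a library.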
